A study of Rattus norvegicus with 40 samples.

Results

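DNA methylation of T cells taken from the kidney was compared with that of T cells taken from the blood of the same rats, in SS/CRL animals on HS chow. All 48078 regions of the authors' table for this comparison were used, 1 of 15 tables in a series of 40 reduced representation bisulfite libraries. Reduced representation bisulfite sequencing reads cytosine methylation in the CpG-rich part of the genome. By their labels, the kidney group held kidney T cells and the blood group circulating T cells. Both came from Dahl SS/JrHsdMcwiCrl rats (SS/CRL), a line bred for salt-sensitive hypertension. The rats were 10 weeks old and had eaten HS chow for 3 weeks. Each group had 4 libraries, each made from a pool of 3 rats, and pools 17 to 20 supplied both tissues. The labels do not give the method of cell isolation, a sort or a gate. The table gives 1 level per group, and neither single pools nor read depth can be seen in it. A level is the authors' methylation in percent, with no SD, and neither a spread between pools nor an interval of a difference could be computed. A region was called higher or lower where, in the authors' deposited table, the adjusted p was under 0.05 and the difference was at least 10 percentage points.

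DNA methylation at CpG sites is copied when cells divide, and its pattern is typical of a cell's lineage. Promoters of genes in use are as a rule unmethylated, and enhancers within or near the genes that define a cell type are often unmethylated only in that cell type. Genes of the T cell receptor pathway, such as those of its adaptors, are open in T cells, and transporter genes of the renal tubule are open in tubular epithelium. In a pool of cells a level between the extremes can stand for a mixture of cells or for partly methylated cells, and these cannot be told apart here.

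Promoter sequences of 4 genes and some mature miRNAs are shown first, because the regions beside them changed in opposite directions. The windows run over 300 bases, from 250 before to 50 after the start in RefSeq's GRCr8 assembly, and CpG sites are in capitals. The methylation regions have rn5 coordinates, so that they cannot be placed within these windows. Lat and Cd37 had a TSS region higher in kidney, as had Cybb, and Slc22a8 had one lower. The strand of Slc22a8 is plus and that of the other windows is minus.
Lat, chr1:190372087-190372386: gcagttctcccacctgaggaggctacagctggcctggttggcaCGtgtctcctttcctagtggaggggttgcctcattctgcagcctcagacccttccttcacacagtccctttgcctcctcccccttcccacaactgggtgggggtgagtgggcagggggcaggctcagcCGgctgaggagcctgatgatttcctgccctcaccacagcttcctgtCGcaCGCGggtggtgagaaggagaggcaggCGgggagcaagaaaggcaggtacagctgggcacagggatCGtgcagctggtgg
Cd37, chr1:104860735-104861034: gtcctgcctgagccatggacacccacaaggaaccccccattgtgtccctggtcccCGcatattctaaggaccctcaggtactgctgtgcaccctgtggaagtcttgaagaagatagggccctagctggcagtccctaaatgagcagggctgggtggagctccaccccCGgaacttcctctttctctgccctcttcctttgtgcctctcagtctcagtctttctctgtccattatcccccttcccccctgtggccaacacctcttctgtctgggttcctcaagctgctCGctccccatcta
Cybb, chrX:16065016-16065315: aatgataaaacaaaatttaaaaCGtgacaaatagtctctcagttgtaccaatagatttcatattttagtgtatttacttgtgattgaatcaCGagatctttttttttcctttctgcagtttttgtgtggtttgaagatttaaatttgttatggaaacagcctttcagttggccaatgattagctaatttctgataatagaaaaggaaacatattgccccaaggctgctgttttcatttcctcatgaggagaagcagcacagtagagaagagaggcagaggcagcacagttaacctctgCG
Slc22a8, chr1:214927034-214927333: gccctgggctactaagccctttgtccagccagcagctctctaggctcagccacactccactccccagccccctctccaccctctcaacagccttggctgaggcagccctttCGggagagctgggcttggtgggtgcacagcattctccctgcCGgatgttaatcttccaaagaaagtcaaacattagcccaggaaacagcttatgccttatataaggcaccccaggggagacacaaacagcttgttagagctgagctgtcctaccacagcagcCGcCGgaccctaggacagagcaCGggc
Read on both strands, TGTGGT, a core that RUNX factors bind, stood in the windows of Lat, Cybb and Slc22a8. It stood in 16.9% of all 27457 windows of this length and in 10.7% of those of genes with a TSS region. GGAAGT, bound by ETS factors, stood in that of Cd37, in 22.8% of all windows and in 22.2% of those of genes with a TSS region. A motif of HNF1 factors stood in the window of Slc22a8. That motif was in 7.37% of all windows and in 3.50% of those of genes with a TSS region. A GATA motif, in 11.3% of all windows, was in none of the 4. A match of letters does not show that a factor binds. The 4 windows held 7 CpG sites in Lat, 5 in Slc22a8 and 3 each in Cd37 and Cybb.

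The miRNAs below are RefSeq mature sequences with the seed, bases 2 to 8, in capitals. The first pair shares a seed and had regions higher in kidney. The second pair shares another seed and had 1 joint region lower. The last set comes from 1 cluster whose joint region was lower.
rno-miR-196a-5p: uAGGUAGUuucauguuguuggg
rno-miR-196c-5p: uAGGUAGUuucguguuguuggg
rno-miR-93-5p: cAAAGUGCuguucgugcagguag
rno-miR-106b-5p: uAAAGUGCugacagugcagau
rno-miR-99b-5p: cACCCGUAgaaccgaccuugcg
rno-let-7e-5p: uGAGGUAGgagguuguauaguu
rno-miR-125a-5p: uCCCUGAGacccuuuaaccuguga

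Most measured regions were less methylated in the kidney libraries than in the blood libraries. The mean level of a region was 34.9% in kidney and 43.6% in blood, and the median 25.6% in kidney and 51.9% in blood. Of the 48078 regions, 13065 were called (27.2%). Of these, 11808 were lower in kidney (24.6% of all regions) and 1257 were higher (2.61%), so that 90.4% of the calls were lower. The shift was not limited to called regions, since 84.5% of all regions had a negative difference and 11.4% a positive one. The median difference over all regions, kidney minus blood in the authors' deposited table, was -4.53 points, with an interquartile range of -11.2 to -0.977. Differences of over 50 points were found at 1660 regions that were lower and 68 that were higher.

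The 2 kinds of call met in the middle of the scale in kidney. Regions called lower had a median of 41.5% in kidney (interquartile range 18.3% to 62.3%) and 76.6% in blood (60.2% to 85.4%). Regions called higher had a median of 41.6% in kidney (25.9% to 58.1%) and 10.5% in blood (3.03% to 27.1%). Kidney levels lay between 20% and 80% at 70.1% of the regions called lower and at 80.7% of those called higher. Complete gains were rare, with 44 regions called higher (3.50%) that reached 80% in kidney. Of the 11270 regions at 80% or more in blood, 6370 (56.5%) lay between 20% and 80% in kidney and 287 (2.55%) under 20%. Of the 20828 regions under 20% in blood, 681 (3.27%) lay between 20% and 80% in kidney and 1 reached 80%. These level classes were chosen for description and carry no test.

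**Figure D1:**
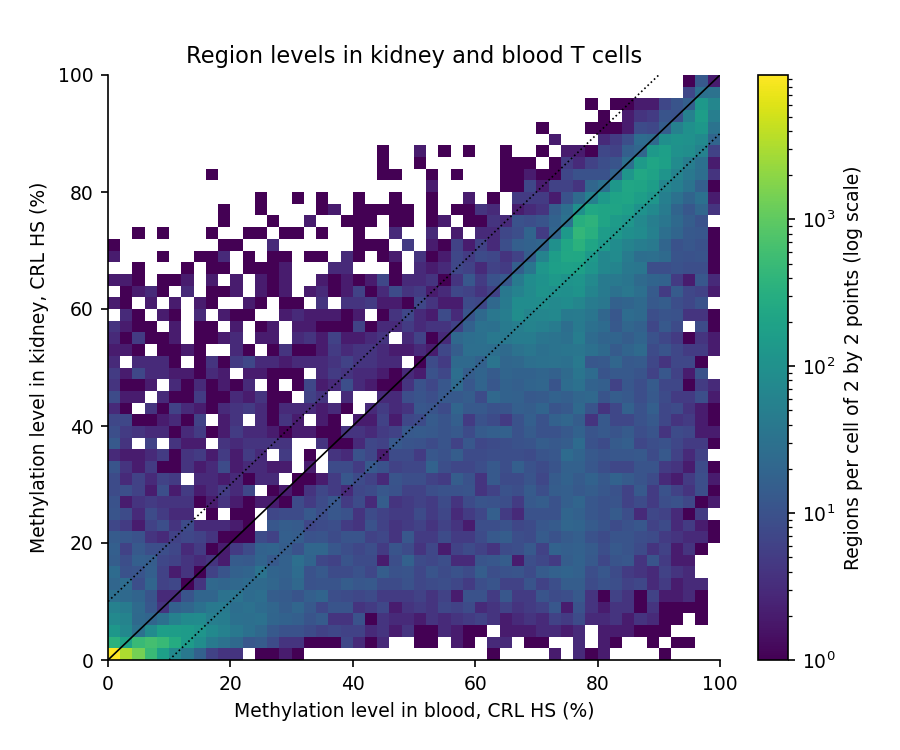
Methylation level of each of the 48078 regions in kidney (vertical axis, percent) against blood (horizontal axis, percent), as the number of regions per cell of 2 by 2 points on a log colour scale. The solid line marks equal levels and the dotted lines a difference of 10 points. Most of the mass lies on or under the solid line, and the few regions far above it begin at low levels in blood.

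The regions fall into 3 classes of the authors' table, TSS (around a transcription start), Intragenic (within a gene) and Intergenic (with no gene given). TSS regions were mostly unmethylated in both tissues, at a median of 0.735% in kidney and 2.09% in blood. Of 13045 TSS regions, 1489 were lower in kidney (11.4%, exact binomial interval 10.9% to 12.0%) and 189 were higher (1.45%, 1.25% to 1.67%). Intragenic regions had a median of 60.5% in kidney and 76.6% in blood. Of 10802 of them, 3740 were lower (34.6%, 33.7% to 35.5%) and 433 higher (4.01%, 3.65% to 4.40%). Of 24231 intergenic regions, 6579 were lower (27.2%, 26.6% to 27.7%) and 635 higher (2.62%, 2.42% to 2.83%). The median difference, again from the authors' deposited table, was -1.30 points at TSS, -7.08 at intragenic and -5.65 at intergenic regions. The binomial intervals here and below are 95% Clopper-Pearson intervals that treat regions as independent, and they do not cover the spread between pools.

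The classes start from different levels in blood, and the share of calls was therefore also counted at matched levels. Between 20% and 60% in blood, a TSS region was lower in kidney more often than a region of the other classes. From 40% to 60% in blood, 233 of 324 TSS regions (71.9%, 66.7% to 76.7%) were lower, against 234 of 547 intragenic (42.8%, 38.6% to 47.0%) and 625 of 1317 intergenic regions (47.5%, 44.7% to 50.2%). Gains showed another order. From 20% to 40% in blood, 102 of 494 intragenic regions (20.6%, 17.2% to 24.5%) were higher in kidney, against 143 of 1075 intergenic (13.3%, 11.3% to 15.5%) and 18 of 579 TSS regions (3.11%, 1.85% to 4.87%). Under 5% in blood, 87 of 8820 TSS regions (0.986%, 0.791% to 1.22%) and 134 of 1363 intragenic regions (9.83%, 8.30% to 11.5%) were higher. Of the 1459 TSS regions between 20% and 80% in blood, 683 (46.8%) lay under 20% in kidney.

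**Figure D2:**
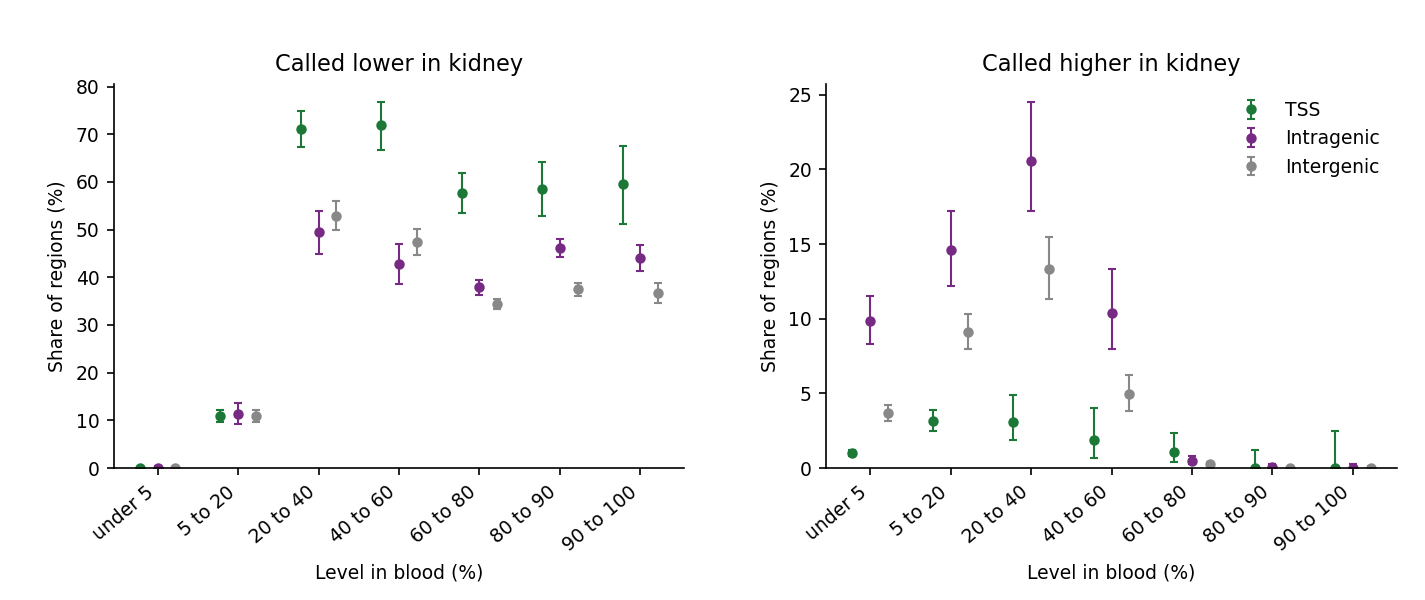
Share of regions called lower (left) and higher (right) in kidney, in percent on the vertical axes, by the level of the region in blood on the horizontal axes, for TSS, intragenic and intergenic regions. Bars are 95% Clopper-Pearson intervals over regions. TSS regions have the largest share lower from 20% upward, reaching 71.9%, and intragenic regions the largest share higher up to 60%, reaching 20.6%.

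Of 8182 genes with a region, 3367 (41.2%) carried a region lower in kidney and 519 (6.34%) a region higher. The shares for gene groups below are to be read against these backgrounds. Genes differ in their number of regions, so counts are also given per region at like levels in blood, where 43.8% of all genic regions at 60% or more in blood were lower and 3.10% of those under 20% were higher. The groups were chosen with earlier results of these data known, and some of their genes had been named there for their large changes (among them Lat, Nckap1l, Arhgap25, Dok2, Kcnn4, Sh2d3c, Map3k14, Map7 and Epb41l5). Their counts are therefore descriptions without a test.

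Among the 8 genes with the largest gains, Grap2, Cd37 and Elmo1 act in leukocytes. Grap2, the adaptor also called GADS that joins Lat to Lcp2 under the T cell receptor, had a TSS region (chr7:121782257-121782444, 9 CpGs) at 69.9% in kidney and 0% in blood, and an intragenic region (chr7:121842491-121842631) at 64.0% in kidney and 2.99% in blood. Cd37, a tetraspanin of leukocytes, had a TSS region (chr1:102300464-102300567) at 61.8% in kidney and 0.649% in blood. Elmo1, which with DOCK proteins activates Rac, had an intragenic region of 15 CpGs (chr17:56692334-56692701) at 57.2% in kidney and 0.291% in blood. Blood levels of these genes were thus near 0 and kidney levels past the middle of the scale. Stom, the membrane protein stomatin, was at 73.4% in kidney and 4.17% in blood. Rgs6, a regulator of G protein signalling, was at 65.6% in kidney and 1.47% in blood. Leprotl1 was at 65.3% in kidney and 2.01% in blood, and Sema4f, a semaphorin, at 63.4% in kidney and 4.11% in blood. Etv3, an ETS family repressor, completed the 8 with a TSS region at 77.2% in kidney and 19.9% in blood. In the authors' deposited table the adjusted p of these 8 lay between 3.35e-12 (Elmo1) and 6.25e-07. The value 6.25e-07 is the smallest that regions of 5 CpGs reach there, so it does not rank them. The table's separate q-value was under 0.05 for 5 of the 8 and was 1.00 for the TSS region of Grap2.

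The 8 largest losses came near a full reversal. Map7, which binds microtubules in epithelial cells, had an intragenic region (chr1:17223525-17223666) at 3.35% in kidney and 95.1% in blood. Xpnpep1, an aminopeptidase, was at 0.417% in kidney and 90.5% in blood, and Rxra, the retinoid X receptor alpha, at 10.0% in kidney and 96.9% in blood. Sh2d3c, an adaptor found in leukocytes, was at 5.20% in kidney and 91.0% in blood. Vps37d, a subunit of the ESCRT-I sorting complex, was the TSS region among the 8, at 3.54% in kidney and 88.8% in blood. Nuak2, a kinase, was at 12.1% in kidney and 97.3% in blood, and Retreg1, a receptor for the turnover of endoplasmic reticulum, at 6.44% in kidney and 91.4% in blood. Runx1, a transcription factor of blood formation, had 31 CpGs over chr11:36371712-36372031 at 9.25% in kidney and 94.3% in blood. In the authors' deposited table the adjusted p of the 8 lay between 3.35e-12 and 6.25e-07, and the q-value was under 0.05 for 7 of them. Kidney levels of the 8 largest losses thus ended closer to 0 than those of the gains did to 100%.

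Extremes of this kind were few. Of 15285 regions under 5% in blood, 37 were called higher and at 50% or more in kidney, of which 6 were TSS, 14 intragenic and 17 intergenic. Of 3751 regions at 90% or more in blood, 67 were called lower and under 20% in kidney, of which 9 were TSS, 27 intragenic and 31 intergenic.

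Genes of T cell receptor signalling were split. Of 35 genes, 21 had a region, of which 7 carried a region higher (33.3% against 6.34% of all genes) and 10 a region lower (47.6% against 41.2%). Both kinds were found in 2 of them, and 6 had no call. Cd247, the zeta chain that carries the receptor's signal into the cell, had 4 of 6 regions higher, at 67.2%, 41.3%, 52.9% and 77.7% in kidney and 29.5%, 19.7%, 20.0% and 62.3% in blood. Lat, the membrane adaptor that the receptor's kinase phosphorylates, had a TSS region (chr1:204752596-204752776, 9 CpGs) at 30.7% in kidney and 0.188% in blood. Lcp2, its partner SLP-76, had an intragenic region at 63.3% in kidney and 7.82% in blood. Ubash3a, a phosphatase family member that restrains the receptor's signal, was higher at its TSS (27.1% in kidney, 0.510% in blood) and within the gene (41.4% in kidney, 10.1% in blood). Cd28, the co-stimulatory receptor, was at 63.9% in kidney and 44.5% in blood, and Cd2, an adhesion receptor, had 1 region at 17.1% in kidney and 1.04% in blood beside 2 that were lower. The remaining member of the 7 was Grap2, described above.

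Of the 10 genes with a region lower, Cd2 and Grap2 also had gains, and the lower region of Grap2 was at 75.7% in kidney and 93.8% in blood. Fyn, a kinase that acts at the receptor, had 5 of 9 regions lower, with the largest difference at chr20:46214469-46214603 (30.1% in kidney, 96.9% in blood). Zap70, the kinase that binds the zeta chain, had 2 regions lower, 1 of them at 39.8% in kidney and 83.3% in blood. Skap1, an adaptor that links the receptor to integrins, had 5 regions lower, the largest difference at 22.4% in kidney and 78.9% in blood. Nfatc2 and Nfatc1, transcription factors activated by calcium, were lower at 3 regions and at 1, and Vav1 and Prkcq at 1 each. None of the 13 TSS regions in the list was lower and 3 were higher, so that all 22 lower regions lay within genes. Of the 20 regions of this list under 20% in blood, 8 were higher (40.0% against 3.10% of all genic regions). At 60% or more in blood, 20 of 41 were lower (48.8% against 43.8%), close to the background. Cd8a, a chain of the receptor that marks cytotoxic T cells, had TSS regions that were at 67.3% and 6.00% in kidney and 57.7% and 11.0% in blood and not called, the first with a difference of 9.63 points in the authors' deposited table. Cd4 and Foxp3 had no region.

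Transcription factors of T cell lineages showed both directions as well. Of 14 measured genes, 7 carried a region lower and 4 a region higher (28.6%). Runx3, the factor of the cytotoxic lineage, had 5 regions lower, of which 2 were at its TSS (15.5% and 14.0% in kidney, 64.4% and 68.2% in blood). Runx1 also had a TSS region lower, at 8.28% in kidney and 40.4% in blood. Ahr, the aryl hydrocarbon receptor, was at 15.6% in kidney and 68.9% in blood. Bcl11b, required for T cell commitment, had 2 neighbouring regions at 4.71% and 4.63% in kidney and 39.2% and 48.7% in blood. Gata3, the factor of the T helper 2 lineage that also acts in kidney development, had small gains at its TSS (11.8% and 17.3% in kidney, 0.409% and 1.26% in blood) and a small loss within the gene (5.78% in kidney, 17.1% in blood). Bcl6 was lower at 1 region (29.5% in kidney, 79.8% in blood) and higher at another (26.6% in kidney, 10.6% in blood). Lef1 and Satb1 were higher at 1 region each, and Tbx21 was lower at 1.

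Genes of trafficking and residence in tissue included gains at 3 of 15 TSS regions (20.0% against 1.45%). Of 15 measured genes, 5 carried a region higher (33.3%) and 6 a region lower (40.0%). Klf2, a factor that keeps T cells circulating, had 1 of 6 regions higher. It was a TSS region of 13 CpGs (chr16:19084042-19084247) at 44.9% in kidney and 3.04% in blood. S1pr1 and S1pr4 are receptors for the lipid that draws lymphocytes out of tissue. S1pr1 was at 59.1% in kidney and 33.9% in blood within the gene, and its TSS region was not called. S1pr4 was at 59.1% in kidney and 19.6% in blood at its TSS. Ccr7, the receptor for homing to lymph nodes, was at 68.8% in kidney and 39.5% in blood within the gene. Itgal, the alpha chain of LFA-1, was higher at its TSS (49.1% in kidney, 5.41% in blood) and lower within the gene (49.7% in kidney, 93.0% in blood). Itgae, the CD103 integrin of resident T cells, had regions at 6.88% and 11.1% in kidney and 19.8% and 43.0% in blood. Prdm1, the factor Blimp-1, had 3 regions lower, the largest at 38.0% in kidney and 85.7% in blood. Itgb7, which pairs with Itgae, was at 8.82% in kidney and 38.3% in blood. Itgb2 and Itga6, also integrin chains, had 2 lower regions each, while Cxcr4, Hopx, Itga1 and Selplg had no call.

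Cytokine and activation genes were measured thinly. Il4 had a TSS region at 19.5% in kidney and 76.1% in blood, and Tgfb1 had regions at 22.8% and 4.44% in kidney and 78.5% and 25.1% in blood. They were 2 of 5 measured cytokine and effector genes (40.0%, near the 41.2% of all genes), and Il13, Ltb and Prf1 had no call. Jak3, the kinase of the common gamma chain receptors, had 4 of 5 regions lower, at 19.4%, 28.0%, 36.1% and 11.7% in kidney and 86.9%, 88.3%, 89.0% and 93.6% in blood. Tnfrsf9, the co-stimulatory receptor 4-1BB, had a TSS region at 35.4% in kidney and 83.2% in blood. Lag3, an inhibitory receptor, was lower within the gene (5.54% in kidney, 25.4% in blood) and higher at its TSS (38.2% in kidney, 22.6% in blood).

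Genes active in leukocytes in general also had both kinds of call. Of 19 measured, 7 carried a region higher (36.8%) and 9 a region lower (47.4%). Of the 15 TSS regions, 5 were higher (33.3% against 1.45% of all TSS regions). Besides Cd37 these were Nckap1l, which organises actin in blood cells (49.9% in kidney, 0.733% in blood), Arhgap25, a GTPase activator (37.5% in kidney, 0% in blood), Rhoh, a GTPase of blood cells (41.5% in kidney, 6.35% in blood), and Dok2, an adaptor (68.1% in kidney, 20.0% in blood). Ptpn6, the phosphatase SHP-1, had an intragenic region at 49.4% in kidney and 0.101% in blood, and Ikzf1, the factor Ikaros, one at 51.1% in kidney and 16.9% in blood. Among the losses were Map3k14, the kinase NIK (7.63% in kidney, 86.5% in blood), and Kcnn4, a calcium-activated potassium channel (13.7% in kidney, 77.5% in blood). Sh2d3c had 5 regions lower.

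Over the 6 lists of T cell and leukocyte genes together, 77 genes were measured, of which 24 carried a region higher (31.2% against 6.34%) and 35 a region lower (45.5% against 41.2%). Of their 84 regions under 20% in blood, 22 were higher (26.2% against 3.10%). Of their 104 regions at 60% or more in blood, 55 were lower (52.9% against 43.8%).

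Markers of other leukocytes held calls as well. Cybb, the catalytic subunit of the phagocyte NADPH oxidase, had a TSS region (chrX:15357847-15357922) at 59.0% in kidney and 2.16% in blood. The other myeloid markers with a call were lower, 7 of 10 measured. Itgam, the integrin CD11b, was at 19.5% in kidney and 87.1% in blood. Fcgr1a, an Fc receptor, was at 23.7% in kidney and 82.1% in blood. Cebpa, which drives the myeloid lineage, had 8 TSS regions under 4% in both tissues. Of 5 measured B cell markers, 2 carried a region lower (40.0%, near the 41.2% of all genes). These were Ebf1 and Pax5, the factors of B cell identity (within the gene, largest differences at 25.5% and 33.2% in kidney, 76.3% and 79.4% in blood). Cd72 was higher at its TSS (31.1% in kidney, 11.5% in blood). None of 3 natural killer markers was called.

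Genes of the renal proximal tubule had the largest share of lower genes among the 20 lists. Of 20 measured, 17 carried a region lower in kidney (85.0% against 41.2%) and 1 a region higher (5.00% against 6.34%). Over their 40 regions the median difference was -24.6 points in the authors' deposited table, against -3.26 over all genic regions. Of their 19 TSS regions, 9 were lower (47.4% against 11.4%), and of their 29 regions at 60% or more in blood, 22 were (75.9% against 43.8%). Slc22a8 and Slc22a6, the organic anion transporters OAT3 and OAT1, had TSS regions (chr1:231737052-231737181 and chr1:231763023-231763357) at 13.0% and 25.3% in kidney and 84.7% and 88.2% in blood. Slc34a1, the sodium phosphate cotransporter, was at 17.6% in kidney and 84.7% in blood. Slc3a1, a subunit of the cystine transporter, had a TSS region at 31.6% in kidney and 98.1% in blood, and also the 1 gain of the group (19.5% in kidney, 4.99% in blood). Cubn and Lrp2, the endocytic receptors cubilin and megalin, were lower at 2 regions each, with the largest difference of Cubn at its TSS (22.0% in kidney, 78.3% in blood) and that of Lrp2 within the gene (28.3% in kidney, 84.5% in blood). Aqp1, the water channel, had a TSS region at 32.4% in kidney and 78.5% in blood, and Hnf4a, a transcription factor of tubule and liver, one at 34.2% in kidney and 76.3% in blood. Slc22a7, Slc5a1 and Slc5a2 had no call.

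Of 13 measured markers of the loop, distal tubule and collecting duct, 8 carried a region lower (61.5%) and 1 a region higher (7.69%). Scnn1a, the alpha subunit of the epithelial sodium channel, had a TSS region of 15 CpGs at 22.9% in kidney and 63.2% in blood. Atp6v0a4, a proton pump subunit, was at 27.6% in kidney and 87.6% in blood. Slc12a3, the thiazide-sensitive cotransporter, was lower by less (67.3% in kidney, 82.4% in blood). Gata2, which acts in both collecting duct and blood stem cells, was at 18.4% in kidney and 75.9% in blood. Umod and Aqp2 had no region.

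Of 24 measured general epithelial genes, 16 carried a region lower (66.7%) and 0 a region higher, with 6.34% of all genes higher. Epcam, an epithelial adhesion molecule, had TSS regions at 23.9% and 4.32% in kidney and 81.3% and 20.1% in blood. Ovol1, an epithelial transcription factor, was at 10.6% in kidney and 88.6% in blood. Prss8, the protease prostasin that activates the sodium channel, was at 10.4% in kidney and 79.8% in blood. Epb41l5, which shapes cell junctions, was at 12.7% in kidney and 95.3% in blood. Map7 had 6 regions lower.

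Podocyte genes were near the background at 60% or more in blood, where 8 of 19 regions were lower (42.1% against 43.8%). Of their 52 TSS regions, 3 were lower (5.77% against 11.4%). By gene, 5 of 11 were lower (45.5% against 41.2%) and 2 higher (18.2% against 6.34%). Synpo, an actin organiser of the podocyte, was at 34.8% in kidney and 97.4% in blood, and Ptpro, a receptor phosphatase, at 15.6% in kidney and 73.9% in blood. Wt1, a factor of podocyte and early kidney, was higher at 2 regions within the gene (24.6% and 13.5% in kidney, 5.51% and 2.23% in blood). Of 24 regulators of kidney development, 9 carried a region lower (37.5% against 41.2%) and 4 a region higher (16.7% against 6.34%), and 3 of 102 TSS regions were lower (2.94% against 11.4%). Bmp7, a growth factor of the nephron, was at 9.54% in kidney and 82.2% in blood over 18 CpGs, and Sall1 at 31.3% in kidney and 85.8% in blood. Pax2, a factor of the early nephron, had 3 regions higher (26.3%, 36.3% and 24.3% in kidney, 7.58%, 7.34% and 6.35% in blood) and 1 lower (23.8% in kidney, 56.4% in blood).

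Over the 5 kidney epithelial lists, 55 of 92 measured genes carried a region lower (59.8% against 41.2%) and 8 a region higher (8.70% against 6.34%). At 60% or more in blood, 63 of 93 of their regions were lower (67.7% against 43.8%). These epithelial values stand in the same libraries as the T cell values above. The part of cells other than T cells in any result was not tested, since the labels give no measure of purity.

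**Figure D3:**
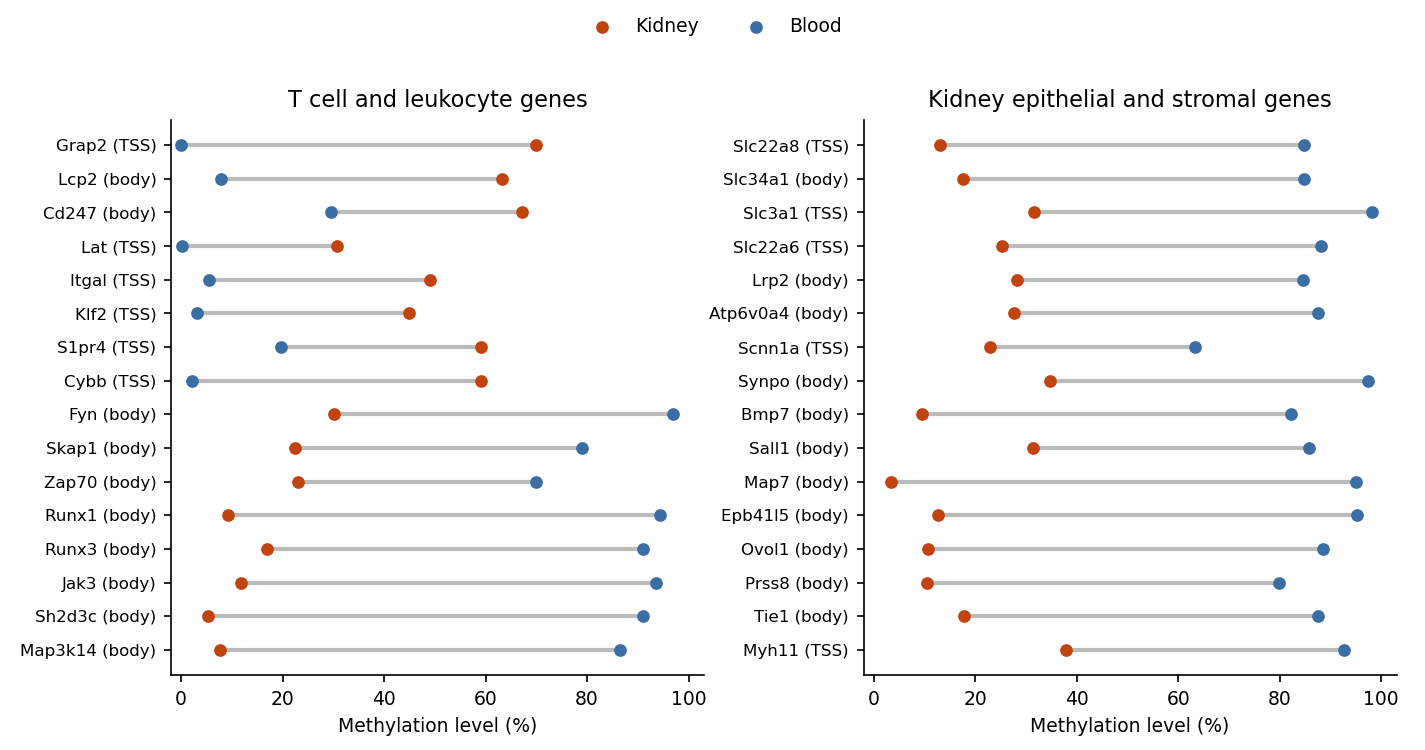
Methylation levels, in percent on the horizontal axis, of the region with the largest difference in each of 32 named genes, with kidney and blood as points joined by a line. The left panel holds 16 T cell, leukocyte and myeloid genes, of which 8 are higher and 8 lower in kidney. All 16 kidney epithelial and stromal genes in the right panel are lower in kidney.

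Stromal genes were near the background at high levels in blood, though endothelial markers were above it by gene. Of the 42 regions of both stromal lists at 60% or more in blood, 17 were lower (40.5% against 43.8%). Of 20 measured endothelial markers, 12 carried a region lower and 4 a region higher (20.0%). Tie1 and Flt1, receptors of the vessel lining, were at 17.8% and 28.2% in kidney and 87.6% and 96.5% in blood, and Tek at 27.3% in kidney and 75.7% in blood. Nos3, the endothelial nitric oxide synthase, was higher at 1 region (61.9% in kidney, 22.1% in blood) and lower at 2, and Erg was higher (66.8% in kidney, 28.7% in blood). Robo4 had 2 regions of 8 CpGs at 23.0% and 22.4% in kidney and 79.1% and 78.7% in blood, whose near-equal values cannot be told apart from 1 sequence placed at 2 sites in rn5. Of 14 fibroblast, mural and smooth muscle markers, 6 were lower (42.9%) and 0 higher. Myh11 and Acta2, the smooth muscle myosin and actin, had TSS regions at 37.9% and 31.2% in kidney and 92.7% and 85.9% in blood.

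**Figure D4:**
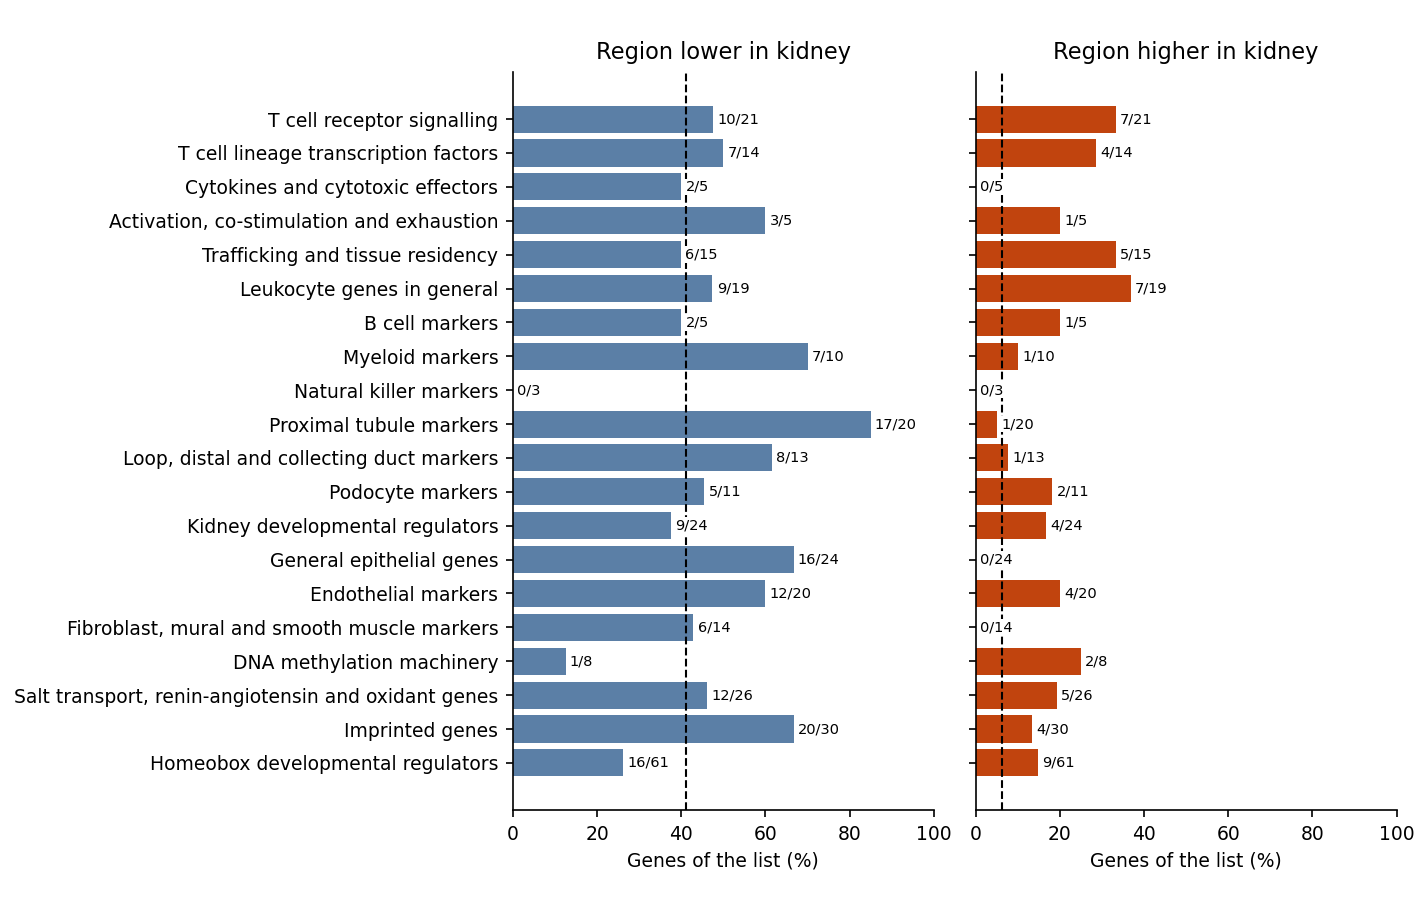
Share of the measured genes in each of 20 lists, in percent on the horizontal axes, that carry a region lower (left) or higher (right) in kidney, with the number of genes beside each bar. Dashed lines mark the share over all 8182 genes, 41.2% lower and 6.34% higher. Proximal tubule markers have the largest share lower, 85.0%, and leukocyte genes in general the largest share higher, 36.8%.

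Salt and oxidant genes are of interest because the strain is salt-sensitive. Of 26 measured, 12 carried a region lower (46.2% against 41.2% of all genes) and 5 a region higher (19.2% against 6.34%). At 60% or more in blood, 16 of their 45 regions were lower (35.6% against 43.8%). Of their 31 TSS regions, 1 was lower (3.23% against 11.4%). Under 20% in blood, 3 of 35 regions were higher (8.57% against 3.10%). The losses named here thus come from a list that was not above the background at like levels. Ace, the angiotensin-converting enzyme, was at 12.9% in kidney and 77.8% in blood. Nedd4l, the ligase that removes the sodium channel from the membrane, had 4 regions lower, the largest at 16.7% in kidney and 93.3% in blood. Nox4, the renal NADPH oxidase, had a TSS region at 24.8% in blood that was listed near 0 in kidney. Stk39, a kinase that activates sodium transporters, was at 48.7% in kidney and 96.4% in blood. Wnk4, a kinase of the same pathway, was higher (35.7% in kidney, 14.2% in blood), as were Nos2 at 1 region (37.3% in kidney, 10.7% in blood) and Nr3c1, the glucocorticoid receptor, at 1 (54.0% in kidney, 38.6% in blood). Nos2 and Nr3c1 also had lower regions. Cybb and Nos3 complete the 5.

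Among 8 measured genes that write, erase or read methylation, 1 carried a region lower (12.5%) and 2 a region higher. Dnmt3a, which methylates new sites, was higher at 2 TSS regions (16.7% and 31.4% in kidney, 6.11% and 5.19% in blood) and lower at 3 regions within the gene. Dnmt3l, its cofactor, was at 35.5% in kidney and 12.9% in blood. Dnmt1, the maintenance enzyme, was at 82.2% and 70.7% in kidney and 85.6% and 75.7% in blood and was not called. The TSS region of Dnmt3b was at or near 0 in both tissues.

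Imprinted genes are marked by methylation of 1 parental copy at their control regions. Of 30 measured, 20 carried a region lower (66.7%) and 4 a region higher (13.3%), and the median over their 123 regions was 15.7% in kidney and 27.1% in blood. Grb10, a growth inhibitor, had 2 TSS regions lower, 1 of them at 19.5% in kidney and 40.4% in blood. Plagl1, a zinc finger gene, had 19 CpGs at 15.7% in kidney and 32.0% in blood. Igf2r, the receptor that clears IGF2, had a region of 25 CpGs within the gene at 1.79% in kidney and 27.6% in blood. Gnas, which encodes a G protein, had 6 regions lower and 1 higher of 16. Snrpn and Snurf share 1 TSS region (27.8% in kidney, 42.4% in blood). Nap1l5 went the other way at 2 TSS regions (59.4% and 57.0% in kidney, 48.4% and 40.3% in blood), as did Mest at 1 (45.7% in kidney, 35.3% in blood). Of the 35 imprinted regions called lower, 31 were matched in each of the other conditions described further on. In CRL LS 23 of them were also lower (74.2%, against 85.3% of all lower calls), and in MCW HS 9 were (29.0%, against 75.2%), 21 were not called and 1 was higher. That one is the Igf2r region, at 22.3% in kidney and 8.69% in blood in MCW HS. The Plagl1 region was at 28.6% in kidney and 25.6% in blood in MCW HS and not called, and the named Grb10 region at 33.4% in kidney and 40.2% in blood and not called. This count was made after the values were seen and has no test. At Cdkn1c the authors' deposited difference, -16.6 points, departs from that of the deposited levels (4.64% in kidney, 7.47% in blood).

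Of 61 measured homeobox genes of development, 16 carried a region lower (26.2% against 41.2%) and 9 a region higher (14.8% against 6.34%), and the median over their 386 regions was 1.80% in kidney and 3.97% in blood. The Hoxd cluster held the most gains. Hoxd12 had 4 TSS regions higher (35.8%, 33.8%, 68.4% and 39.7% in kidney, 13.4%, 18.4%, 16.5% and 14.9% in blood). Hoxd3 had 4 regions higher, the largest at 47.3% in kidney and 11.6% in blood. Losses lay in the Hoxb cluster, with Hoxb5 at 27.5% in kidney and 72.4% in blood and Hoxb3 at 22.0% in kidney and 74.8% in blood, while Hoxb9 was higher (31.6% in kidney, 16.5% in blood). Hoxa6 was lower at 2 regions of 12 CpGs with near-equal levels (9.28% each in kidney, 49.4% and 49.3% in blood), another pair that cannot be told apart from 1 sequence placed at 2 sites.

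Genes of miRNAs were counted after values were seen, so they have no independent standing. Of 116 measured, 42 carried a region lower (36.2% against 41.2%) and 6 a region higher (5.17% against 6.34%). A joint region counts for each of its genes here. By region, 28 of 149 were lower (18.8%) and 6 higher (4.03%). The shares were 21.9% and 2.61% over all genic regions, and 11.4% and 1.45% over TSS regions. Apart from that of Mir6216, the called miRNA regions were TSS regions. The shared seed of miR-196a and miR-196c, AGGUAGU, comes from 2 loci in different Hox clusters, and both were higher: Mir196c at 46.2% in kidney and 13.5% in blood, and Mir196a at 17.9% in kidney and 6.27% in blood. Mir615, which lies within Hoxc5, was at 19.0% in kidney and 4.86% in blood in the region that the table also gives to that gene. Mir138-2 was at 46.2% in kidney and 22.0% in blood, Mir149 at 25.2% in kidney and 6.53% in blood, and Mir6328 at 25.5% in kidney and 1.14% in blood. Among the losses, the cluster of Mir99b, Mirlet7e and Mir125a had a region of 17 CpGs at 30.2% in kidney and 83.1% in blood. Mir141 and Mir200c, epithelial miRNAs, shared a region at 68.5% in kidney and 95.3% in blood. Mir25, Mir93 and Mir106b shared a region at 67.2% in kidney and 88.2% in blood, and the 93-5p and 106b-5p forms share the seed AAAGUGC. Mir34a, a target of p53, was at 57.4% in kidney and 85.1% in blood, and Mir378 at 9.03% in kidney and 53.3% in blood. A level is that of the DNA region and says nothing of the amount of the miRNA.

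Some genes carried opposite calls. Of the 519 genes with a region higher, 241 (46.4%) also carried a region lower. Of the 5006 genes with 2 or more regions, 49.4% were lower at 1 or more. These 2 shares cannot be set against each other. The 519 include genes with 1 region, such as Arhgap25, which cannot carry both calls. In Cd37 the gain at 1 TSS region stood between 2 regions within the gene (4.35% and 19.3% in kidney, 81.6% and 90.5% in blood) and 2 further TSS regions that were lower (44.6% and 66.0% in kidney, 92.6% and 83.3% in blood). Pik3cd, the leukocyte form of phosphoinositide 3-kinase, had an intragenic region at 53.1% in kidney and 0.992% in blood, and 31 CpGs at its TSS at 20.9% in kidney and 88.4% in blood. Def6, an exchange factor of T cells, was at 34.4% in kidney and 8.26% in blood in 1 region and at 8.11% in kidney and 89.2% in blood over 31 CpGs of another. Cdk6, a kinase of the cell cycle, was at 33.9% in kidney and 1.89% in blood in 1 region and at 11.8% in kidney and 82.3% in blood in another. Pik3cd, Def6 and Cdk6 were chosen after their values were seen, among the genes with the widest distance between a gain and a loss.

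Some genes held long runs of called regions. Zfp316, a zinc finger gene, had 10 of its 11 regions higher within chr12:15402868-15404985, at 14.3% to 49.0% in kidney and 0.797% to 13.2% in blood. Lysmd1 and Sema6c share 8 regions in the table, of which 5 were higher, at 21.4% to 59.5% in kidney and 4.20% to 37.8% in blood. Camta1, a calmodulin-binding transcription activator, had 34 of 61 regions lower and 4 higher. The names LOC310926 and Rn5-8s (the 5.8S ribosomal RNA) had 49 of 75 and 43 of 83 regions lower, at medians of 15.8% and 13.0% in kidney and 28.1% and 25.7% in blood. They lie on 2 and 4 chromosomes. Their counts are uncertain, since each name covers more than 1 chromosome and how reads were assigned to copies is not known. Ribosomal genes such as Rn5-8s are repeated.

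Regions without a gene held changes as large. The largest intergenic loss (chr20:49852410-49852546, 10 CpGs) was at 6.83% in kidney and 96.5% in blood, and the largest gain (chr11:33815685-33815843, 8 CpGs) at 70.6% in kidney and 0.850% in blood. The X chromosome was called less often than the autosomes, with 15.5% of 1074 regions lower (13.3% to 17.8%) against 24.8% of 47004 (24.4% to 25.2%), and 1.30% higher (0.714% to 2.18%) against 2.64% (2.50% to 2.79%). Within intergenic regions the share lower was 18.6% on X (15.9% to 21.6%) and 27.4% on the autosomes (26.9% to 28.0%). Chromosome 20 had the largest share lower, 30.1% of 1476 regions (27.7% to 32.5%). By number of CpGs, the share lower was 23.4% at 5 CpGs, 29.8% at 6 to 9, 26.3% at 10 to 19 and 13.5% at 20 or more. The last class had a median of 0.934% in kidney and 2.15% in blood, a level from which a fall of 10 points is not possible.

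The same calls were looked up in the CRL rats on LS chow and in the MCW colony on HS chow, both 10 weeks old, whose pools are numbered apart from those of CRL HS. The MCW rats are Dahl SS/JrHsdMcwi (SS/MCW) and also ate HS chow for 3 weeks. In CRL LS, 20.5% of all 49145 regions were lower and 1.99% higher, and in MCW HS 21.7% of all 60906 were lower and 2.98% higher. Regions were matched by an overlap of at least 1 bp. Of 8989 CRL HS regions called lower and measured in CRL LS, 7665 (85.3%) were lower there too and 5 were higher, and of 903 called higher 729 (80.7%) were higher there too and 2 were lower. Read the other way, 81.5% of the lower and 83.7% of the higher calls of CRL LS among matched regions were called alike in CRL HS. In MCW HS, 8398 of 11174 (75.2%) were lower and 1009 of 1211 (83.3%) higher in the same direction, with 11 and 8 opposite. Read the other way, the shares were 88.3% of the lower and 85.3% of the higher calls of MCW HS.

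Median levels in kidney differed between the conditions at regions selected by their CRL HS calls. Such a selection tends to make the CRL HS difference the larger, so the sizes below are descriptions. Over the lower calls matched with CRL LS, the median level in kidney was 34.9% in CRL HS and 29.8% in CRL LS, and the median difference in the authors' deposited tables was -24.2 points in CRL HS and -27.3 in CRL LS. Over those matched with MCW HS, the median difference in the authors' deposited tables was -22.9 points in CRL HS and -17.7 in MCW HS, and it was larger in MCW HS at 12.2% of them. Blood medians were 75.5% in CRL HS and 74.8% in CRL LS over the first set, and 76.8% in CRL HS and 77.2% in MCW HS over the second. At the Slc22a8 TSS, kidney was at 13.0% in CRL HS, 4.16% in CRL LS and 37.2% in MCW HS. At the Jak3 region with the largest difference, kidney was at 11.7% in CRL HS, 1.86% in CRL LS and 25.6% in MCW HS. Over the higher calls, the median kidney level was 38.6% in CRL HS and 36.4% in CRL LS at regions matched with CRL LS, and 41.4% in CRL HS and 38.6% in MCW HS at those matched with MCW HS. At Cybb, which was higher, kidney was at 59.0% in CRL HS, 69.8% in CRL LS and 49.8% in MCW HS, and at Elmo1 it was at 57.2% in CRL HS, 36.5% in CRL LS and 53.2% in MCW HS. Without values per pool, the difference between conditions could not be tested, and the tables were segmented separately. Of the 16 largest changes, 13 had a region in CRL LS and 15 in MCW HS, and all of these were called in the same direction.

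**Figure D5:**
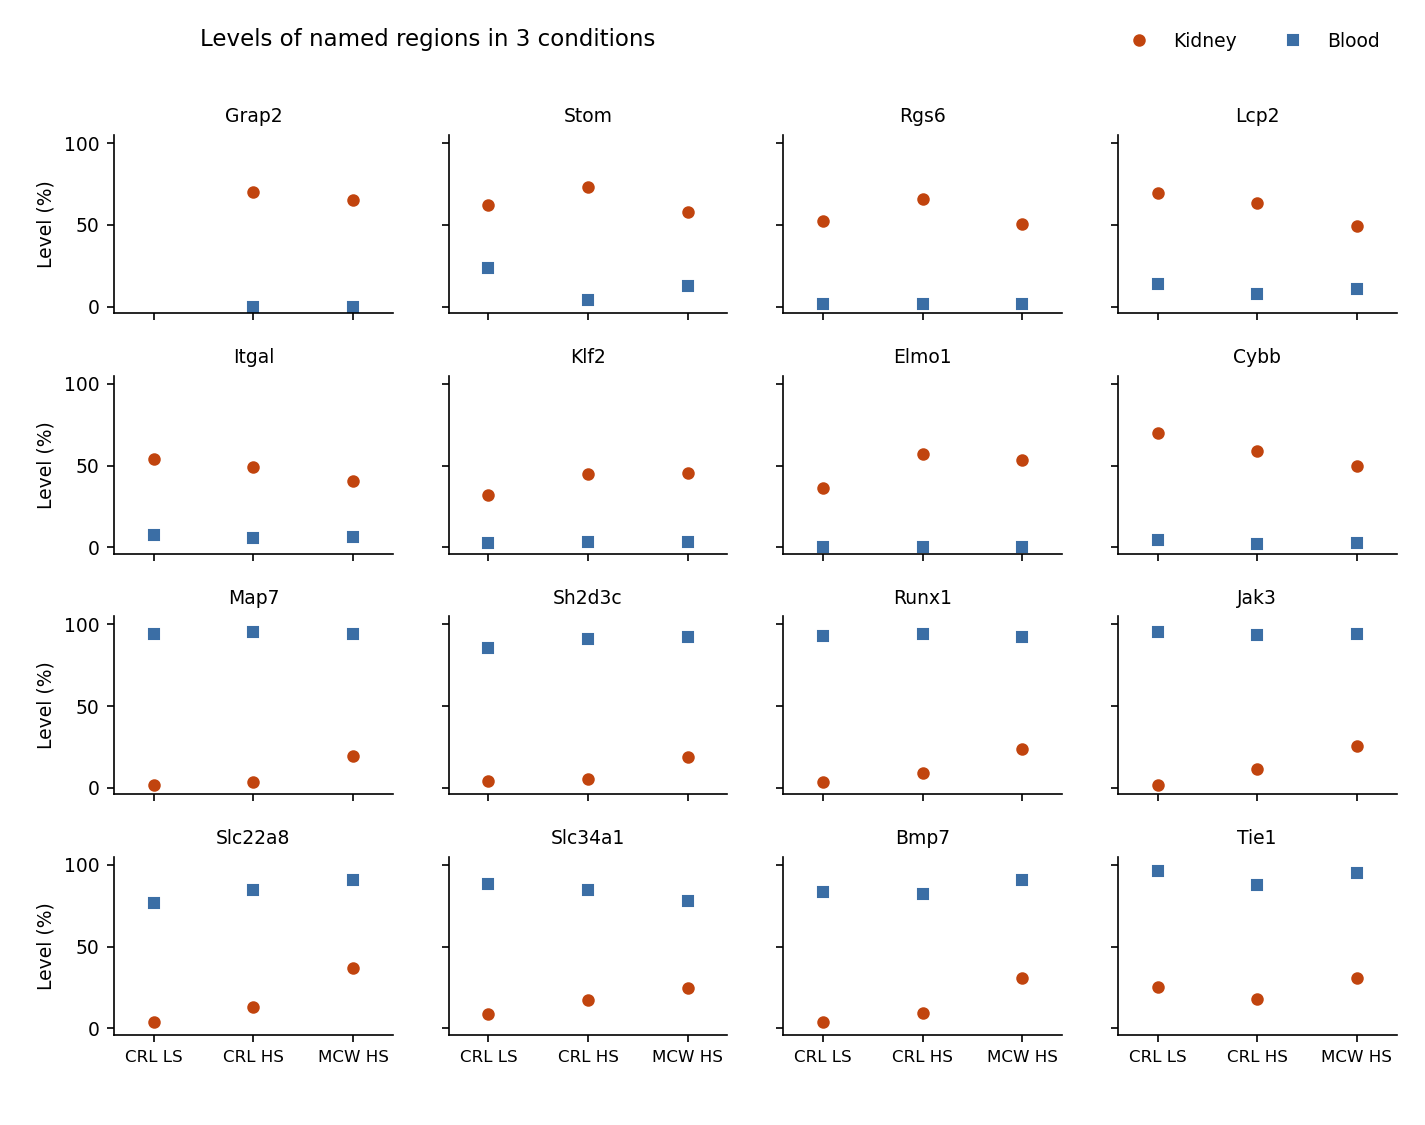
Levels in kidney and in blood, in percent on the vertical axis, of 16 named regions in CRL LS, CRL HS and MCW HS along the horizontal axis, 1 value per group. In each condition with a value, kidney lies above blood in the upper 8 genes and under it in the lower 8. Grap2 has no matched region in CRL LS.

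Few CRL HS calls were made in neither of the other conditions. Of 24930 CRL HS regions matched in both other conditions, 8670 were called lower, of which 6137 (70.8%) were lower in both others and 689 (7.95%) in neither. Of 883 called higher, 637 (72.1%) were higher in both and 60 (6.80%) in neither. Of those called in neither other condition, 3 of the lower and 1 of the higher differed by over 30 points, and the median difference was -12.2 and 12.0 points in the authors' deposited table.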

How the data were processed

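Reduced representation bisulfite libraries of kidney and circulating T cells were sequenced over 100 cycles paired-end, per the labels' protocols, and the build was rn5, per the submitters' processing notes. For aligner and caller, neither name nor version is given in the sources used here. The authors deposited a methylation level per region and group as a fraction, which was multiplied by 100, with the blood minus kidney difference, whose sign was turned. The authors also deposited a p-value, its adjusted form and a separate q-value per region. Recomputed Benjamini-Hochberg values departed from their adjusted p by at most 5.55e-16. Regions held 5 or more CpGs. The smallest p in the authors' deposited table is 3.30e-14, whereas 0.0286 is the least that an exact two-sided rank test over 4 and 4 pools can give, so their test counts more units than the 4 pools of a group. With no value per pool, no test could be run on pools, and calls use the authors' adjusted p under 0.05 with a difference of at least 10 points. Start positions are printed as deposited. Symbols were updated through RefSeq (415 of 8202), and joint entries were split. Named were the 8 largest changes each way, the 3 genes with most called regions each way, up to 4 members per list and 20 genes of interest, and further members were chosen after their values were seen. Members and lists were chosen with earlier results of these data known. Python 3.11.15, pandas 2.3.3, numpy 2.4.6, scipy 1.17.1 and matplotlib 3.10.9 were used, and the scripts were tested on simulated data.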

Additional observations from a re-analysis of the deposited data

How the results depend on the processing

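No paired analysis was possible because the deposited table holds 1 level per group, although pools 17 to 20 supplied both tissues, and for the same reason no pool could be left out in turn. Against 11808 regions called lower and 1257 higher, there were 24241 lower and 2536 higher with no minimum difference, 6687 and 707 with a minimum of 20 points, 2273 and 313 by the q-value under 0.05, and 1487 and 170 with at least 10 CpGs. The share of calls that were lower was 87.9% at intragenic regions of at least 10 CpGs, against 89.6%, and 91.9% at intergenic regions with no minimum difference, against 91.2%. Of the genes of any list, 67 were lower and 27 higher at promoter regions alone, against 162 and 55, and 34 were higher with a minimum of 20 points. With identical start and end in place of overlap, 90.8% of the lower and 84.9% of the higher calls recurred in CRL LS, and 82.4% and 89.9% in MCW HS. The q-value was 1 at 71.2% of the called regions, and the cause was not tested. Read depth is unknown, so what it limits could not be set. At 54 called regions (0.413%) the 2 deposited levels lie under 10 points apart although the deposited difference is larger.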

Other observations

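Further genes with a wide distance between a gain and a loss were chosen after their values were seen. Septin9, a cytoskeletal protein, was at 41.2% in kidney and 0.568% in blood at its TSS and at 8.41% in kidney and 72.4% in blood in another TSS region. Rasa3, a GTPase activator of blood cells, was at 45.5% in kidney and 0.304% in blood in 1 region and at 30.8% in kidney and 98.5% in blood in another.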
